A study of Mus musculus with 19 samples.

Results

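Keratins of bile duct cells and hepatocytes were followed in mouse liver cells: Krt7, Krt19, Krt23 and Krt80, which duct and other lining epithelia use, and Krt8 and Krt18, which hepatocytes and duct cells share. The 6 genes were taken by symbol from the deposited count tables, where they are 6 of 35274 genes and 6 of 53 protein-coding keratin genes. All 15 samples came from livers of mice with the genotype OPN-CreERT2;Rosa26R-mT/mG. In such mice tamoxifen switches on a Cre recombinase made from the osteopontin promoter, and recombined cells trade a red for a green membrane-bound fluorescent protein that their progeny keep. The GREEN group comprised hepatocytes from livers with chronic injury, named as derived from "DR", which the labels leave unexplained. The RED group comprised native hepatocytes from livers with chronic injury that still carried the red tdTomato protein. The CTL group comprised native hepatocytes from healthy control livers. Each group had 5 biological samples, and the labels give neither the agent of injury nor the age or sex of the animals. GREEN cells are those in which, or in whose ancestors, the osteopontin promoter had been active when the recombinase was switched on, so the group is defined by that promoter.

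Keratins are the intermediate filament proteins of epithelial cells, and every filament pairs a type I with a type II keratin. Hepatocytes of a healthy liver are known to build their filaments from Krt8 (type II) and Krt18 (type I) alone, whereas bile duct cells add Krt7 (type II) and Krt19 (type I), which pathologists stain to find ducts. Krt23 is a type I keratin known to be induced in stressed liver and in ductular cells, and Krt80 is a type II keratin of epithelia that lies at cell junctions.

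Libraries of experiment 1 held 22442607 to 34216824 estimated counts and were made with a poly(A) kit, and those of experiment 2 held 38061859 to 44177627 and were made after ribosomal RNA was removed. Levels are given as CPM, a count divided by the scaled library size. Each group entered the comparisons with 2 libraries of experiment 1 and 3 of experiment 2. All 24 hepatocyte markers were detected in each group. GREEN libraries also held more RNA of bile duct markers. The summed level of 24 such markers, none of them a keratin, was 903 to 10626 CPM in GREEN, 244 to 570 CPM in RED and 185 to 435 CPM in CTL, where Cftr and Sctr were at 0. The 24 include Spp1, the osteopontin gene whose promoter defines GREEN, so the sum is not independent of how that group was chosen. In bulk RNA, more cells of a type and more RNA of its genes per cell cannot be told apart. GREEN 3 and GREEN 4 carry the same code in their library descriptions, and their profiles across experiments correlated at 0.857 over genes, against 0.647 to 0.862 for the libraries of 1 sample made in both experiments. GREEN libraries of different codes correlated across experiments at 0.491 to 0.771, and the 2 ranges overlap. The mean of RED 2, RED 3 and RED 4 in each experiment was first subtracted. RED pairs were thus centred on themselves and GREEN pairs were not, so the ranges are not on a like scale. The correlation does not settle whether GREEN 3 and GREEN 4 are 1 sample. They were counted as 2 samples, as the titles give them, and results are also given without them.

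Krt8 and Krt18 are neighbours on chromosome 15 of GRCm38, Krt8 (ENSMUSG00000049382.9) at 101996698 to 102004482 on the minus strand and Krt18 (ENSMUSG00000023043.6) at 102028180 to 102032027 on the plus strand, with 23698 bases between them. Krt80 (ENSMUSG00000037185.8, 101347444 to 101370162, minus strand) and Krt7 (ENSMUSG00000023039.16, 101411043 to 101430313, plus strand) lie on the same chromosome, 40881 bases apart. Krt19 (ENSMUSG00000020911.14, 100140810 to 100148665) and Krt23 (ENSMUSG00000006777.7, 99477974 to 99493137) lie on the minus strand of chromosome 11. The promoters are shown because Krt8 and Krt18 moved together and apart from Krt7 and Krt23. The sequences are RefSeq's, on GRCm38.p6, read 5′ to 3′ on the gene's own strand. Each covers the longest unbroken part outside annotated exons of the 250 bases before RefSeq's own gene start. RefSeq's starts differ from the gene ends given above, and the Krt7 stretch lies inside the annotated Krt7 gene, between its exons. Capitals mark CACCC, a motif of Krueppel-like factors, which is written GGGTG where it lies on the other strand.
Krt8: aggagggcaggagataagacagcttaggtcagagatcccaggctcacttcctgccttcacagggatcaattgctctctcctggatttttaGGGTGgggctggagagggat
Krt18: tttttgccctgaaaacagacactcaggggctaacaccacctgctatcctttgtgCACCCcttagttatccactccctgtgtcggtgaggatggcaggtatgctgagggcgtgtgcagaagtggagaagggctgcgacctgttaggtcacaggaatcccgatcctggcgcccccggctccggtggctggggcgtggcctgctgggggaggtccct
Krt7: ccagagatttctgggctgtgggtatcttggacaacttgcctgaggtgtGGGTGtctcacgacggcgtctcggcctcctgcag
Krt23: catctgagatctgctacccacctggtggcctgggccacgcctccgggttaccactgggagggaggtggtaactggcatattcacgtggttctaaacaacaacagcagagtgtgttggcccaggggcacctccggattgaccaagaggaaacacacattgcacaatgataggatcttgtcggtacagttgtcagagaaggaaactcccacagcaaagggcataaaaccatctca
The stretches lie at chr15:102004483-102004592, chr15:102027966-102028179, chr15:101412153-101412234 and chr11:99493138-99493370. No promoter is printed for Krt19 and Krt80. In the full window of 250 bases CACCC was found 2 times before Krt8 (1 of them within an annotated exon), 1 time before Krt18, 1 time before Krt7 and 0 times before Krt23, counting both strands, and 52% of 32851 promoters held it. The GC box GGGCGG was found 4 times in the Krt7 window, within annotated exons, and in 0 of the other 3 windows, against 32.7% of all promoters. The SOX motif ACAAAG was found 1 time, before Krt18, and 16.5% of all promoters held it. The other 5 motifs were found in 0 of the 4 windows. They were the TATA box TATAAA (in 12.4% of all promoters), the AP-1 motif TGANTCA (6.7%), the TEAD motif GGAATG (12.6%), the HNF1 motif GTTAAT (6.4%) and the forkhead motif TGTTTAC (3.2%).

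Krt19, the type I keratin by which bile ducts are stained, had the highest mean level per transcript length of the 4 duct keratins in GREEN samples. Its level was 8.33, 14.0, 73.9, 98.6 and 79.7 CPM in GREEN 1 to 5. It was 0.297, 0.363, 0.551, 0.334 and 0.895 CPM in RED 1 to 5. CTL 4 held 1 count of Krt19 (0.0570 CPM) and the other 4 CTL libraries held 0 counts, which allow up to 0.0780 to 0.118 CPM in each. The 3 groups did not overlap, and all 5 RED samples stood above the limits of the CTL libraries at 0. GREEN 1 and GREEN 2 were the low samples of their group.

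Krt23, a type I keratin, was present in all GREEN and RED samples. Its level was 6.91, 12.4, 29.1, 89.3 and 59.7 CPM in GREEN 1 to 5. It was 0.552, 1.40, 0.575, 0.358 and 0.311 CPM in RED 1 to 5. In CTL 1 to 5 it was 0, 1.05, 0.118, 0 and 0.0885 CPM. GREEN did not overlap RED or CTL. CTL 2, with 40 counts, stood far above the other 4 CTL samples, which held 0 to 3 counts, and above 4 of the 5 RED samples.

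Krt7, the type II keratin of duct epithelium, was detected in every sample. Its level was 5.25, 6.94, 36.2, 46.4 and 26.6 CPM in GREEN 1 to 5. It was 0.0849, 1.97, 0.790, 0.526 and 0.778 CPM in RED 1 to 5. In CTL 1 to 5 it was 0.650, 0.653, 0.197, 0.171 and 0.443 CPM. GREEN lay above both other groups, while RED and CTL overlapped. RED 1, a library of experiment 1 with 2 counts, was the lowest of the 15 samples. In the 4 samples sequenced in both experiments Krt7 was higher in the experiment 2 library every time, by 0.57 to 1.54 on the log2 scale, whereas Krt8 and Krt18 differed by at most 0.21.

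Krt80, a type II keratin, had the lowest mean level per transcript length of the 6 in GREEN and RED samples. Its level was 0.186, 0.633, 2.14, 3.41 and 2.26 CPM in GREEN 1 to 5. It was 0.170, 0.0519, 0.144, 0.191 and 0.545 CPM in RED 1 to 5. In CTL 1 to 5 it was 0, 0.0261, 0, 0.114 and 0.0295 CPM, from 4 counts in all. GREEN and RED overlapped, since GREEN 1, with 9 counts, lay below RED 4 and RED 5. The other 4 GREEN samples lay above every RED sample.

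Krt8, the type II keratin of hepatocytes, was detected at 194 CPM or more in every sample. Its level was 218, 356, 773, 745 and 775 CPM in GREEN 1 to 5. It was 307, 201, 249, 635 and 374 CPM in RED 1 to 5. In CTL 1 to 5 it was 262, 194, 195, 333 and 414 CPM. The groups overlapped: GREEN 3, GREEN 4 and GREEN 5 stood above every RED and CTL sample, and GREEN 1 lay among the CTL samples. The processed pseudogene Krt8-ps, which could take reads of Krt8 in the authors' counting, held 19 counts over GREEN, 17 over RED and 4 over CTL.

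Krt18, the type I partner of Krt8, followed it from sample to sample. Its level was 218, 274, 571, 515 and 549 CPM in GREEN 1 to 5. It was 302, 202, 205, 566 and 306 CPM in RED 1 to 5. In CTL 1 to 5 it was 245, 179, 174, 290 and 373 CPM. RED 4 was the high RED sample for Krt18 as for Krt8, and only GREEN 3 lay above it.

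**Figure D1:**
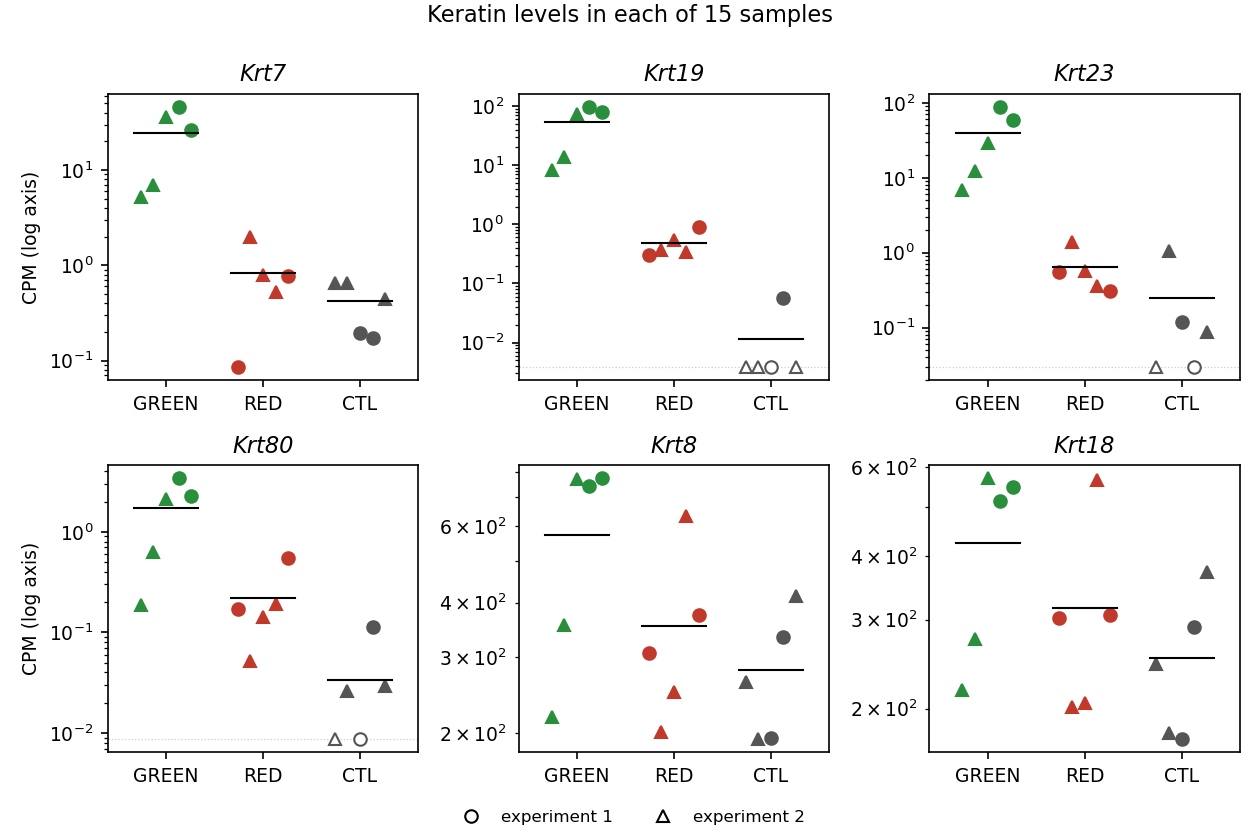
Level of each keratin in CPM on a log axis, 1 point per sample in the order of replicate numbers, with circles for experiment 1 and triangles for experiment 2. Black lines are group means, and open symbols on the dotted line are samples with 0 counts. GREEN samples stand above both other groups for Krt7, Krt19 and Krt23, while the 3 groups overlap for Krt8 and Krt18.

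GREEN versus RED compared the cells that had switched colour with the native hepatocytes of injured liver. The 4 duct keratins rose in GREEN samples, and the hepatocyte pair did not pass the test. By edgeR's quasi-likelihood F test over all genes, 4 of the 6 keratins passed the adjusted p threshold of 0.05, all higher, where 12.9% of 16387 genes passed and 9.68% were higher. The median log2 fold change of the 6 was 3.92, against -0.02 over all genes. Over all genes 1586 were higher and 528 lower, and with libraries scaled by their totals 4289 were higher and 40 lower, with the same 4 keratins called.

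Krt19 rose most, to 54.9 ± 41.0 CPM in GREEN, against 0.488 ± 0.247 CPM in RED (SD, n = 5 each; log2 fold change 6.63, standard error 0.63, adjusted p = 7.6e-05). It ranked 9th of 16387 genes by p-value. Krt23 averaged 39.5 ± 34.6 CPM in GREEN and 0.640 ± 0.442 CPM in RED (log2 fold change 5.69, standard error 0.98, adjusted p = 0.0022). Krt7 averaged 24.3 ± 18.0 CPM in GREEN and 0.830 ± 0.700 CPM in RED (log2 fold change 4.92, standard error 0.78, adjusted p = 0.0013). Krt80 showed the smallest of the 4 rises, with 1.73 ± 1.31 CPM in GREEN and 0.220 ± 0.189 CPM in RED (log2 fold change 2.93, standard error 0.66, adjusted p = 0.013). Its call ended without GREEN 3 (log2 fold change 2.30, adjusted p = 0.059), without RED 1 (2.63, adjusted p = 0.05) and without GREEN 3 and GREEN 4 together (2.06, adjusted p = 0.16), whereas Krt7, Krt19 and Krt23 passed in all these fits.

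Krt8 averaged 573 ± 266 CPM in GREEN and 353 ± 170.4 CPM in RED (log2 fold change 0.67, standard error 0.39, adjusted p = 0.26). Krt18 averaged 425 ± 166 CPM in GREEN and 316 ± 148 CPM in RED (log2 fold change 0.42, standard error 0.35, adjusted p = 0.45). Neither difference passed the threshold, and GREEN and RED samples overlapped for both genes.

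Within experiment 1 alone, with 2 GREEN and 5 RED libraries, Krt7, Krt19, Krt23 and Krt80 passed, with log2 fold changes of 6.24, 7.41, 6.96 and 3.66. Within experiment 2 alone, with 3 libraries a group, 0 of the 5 keratins tested passed, although 3 had an unadjusted p under 0.05, and of all 16816 genes 76 were higher and 1 lower. The values there were 3.89 for Krt7 (adjusted p = 0.083), 6.26 for Krt19 (adjusted p = 0.066) and 4.38 for Krt23 (adjusted p = 0.16), and Krt80 was removed by the filter on low counts. The 3 RED and GREEN libraries that share a code there deviated together (correlations of 0.58, 0.40 and 0.78), and with the code as a block Krt19 (adjusted p = 0.006) and Krt23 (adjusted p = 0.025) passed, where 850 of 16507 genes were higher and 7 lower. The change of a keratin did not differ detectably between the experiments: the interaction test gave adjusted p = 0.58 to 1 for the 6 genes. Without GREEN 3, GREEN 4 and GREEN 5, the 3 GREEN samples with the highest duct marker sums, Krt19 passed (log2 fold change 4.83, adjusted p = 0.015), and Krt7 (2.46, adjusted p = 0.25), Krt23 (3.47, adjusted p = 0.5) and Krt80 (1.63, adjusted p = 1) did not.

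**Figure D2:**
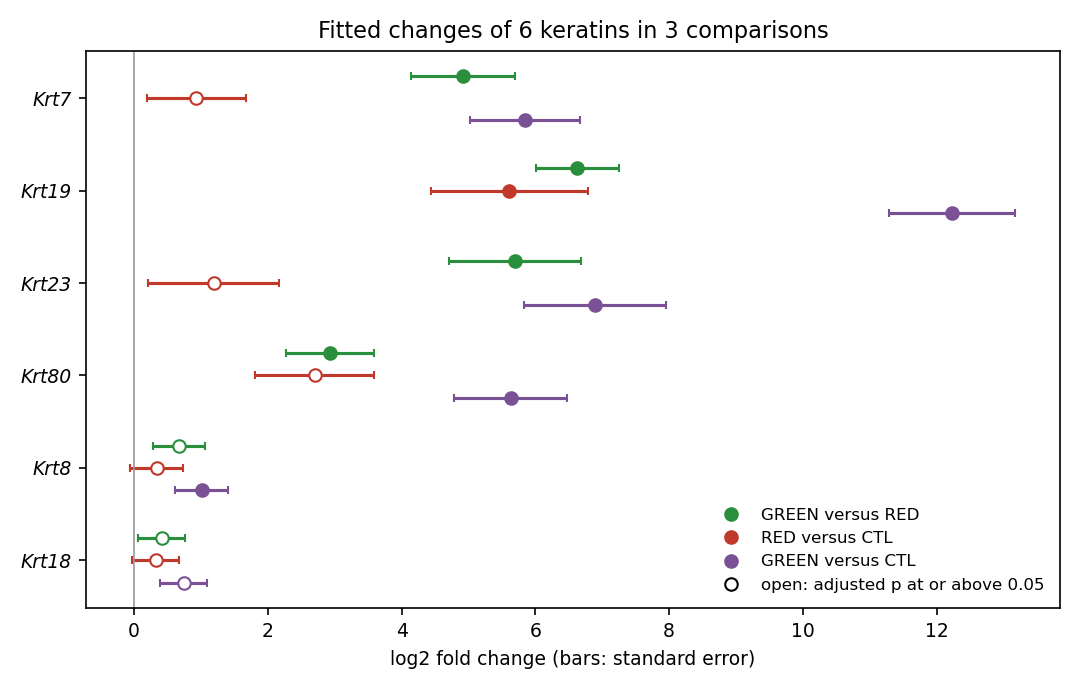
Fitted log2 fold change of each keratin in 3 comparisons, with bars of 1 standard error and filled points for adjusted p under 0.05. Krt7, Krt19, Krt23 and Krt80 lie at 2.93 to 6.63 in GREEN versus RED, while Krt8 and Krt18 lie at 0.67 and 0.42. The points of Krt19 against CTL rest on 1 count in CTL and depend on the prior count of the fit.

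RED versus CTL compared native hepatocytes of injured and of healthy liver. Krt19 was the keratin that rose in RED: 1 of the 6 keratins passed, where 16.2% of 16387 genes passed and 14.2% were higher, so the share of keratins called was near that of all genes. The median log2 fold change of the 6 was 1.06, against 0.05 over all genes. RED held 81 counts of Krt19 in all and CTL held 1, a ratio of library-scaled counts of 72.6 with an exact interval of 12.7 to 2902 that covers counting error only (adjusted p = 0.004). The call held in experiment 1 alone (adjusted p = 0.011) but ended in experiment 2 alone (adjusted p = 0.11) and with limma-voom (adjusted p = 0.079). With only RED and CTL fitted, 4 of the 6 keratins were tested and 0 called. Krt19 and Krt80 were removed there by the filter on low counts, so both reached the main test only with the GREEN libraries in the fit.

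Krt80 averaged 0.220 ± 0.189 CPM in RED and 0.0339 ± 0.0469 CPM in CTL, from 34 and 4 counts, and missed the threshold narrowly (log2 fold change 2.70, standard error 0.89, adjusted p = 0.053). It passed with DESeq2 (2.81, adjusted p = 0.024) and when RED 1, RED 2, GREEN 1 or GREEN 3 was left out. All these fits held GREEN libraries, without which Krt80 was not tested. Its fold change was smaller with the experiment 1 library of the repeated samples (1.35, adjusted p = 0.51). The same held with both libraries summed (1.65, adjusted p = 0.33) and in experiment 1 alone (1.14, adjusted p = 0.58). Krt7 averaged 0.830 ± 0.700 CPM in RED and 0.423 ± 0.234 CPM in CTL (log2 fold change 0.93, standard error 0.74, adjusted p = 0.48). Krt23 averaged 0.640 ± 0.442 CPM in RED and 0.250 ± 0.447 CPM in CTL (log2 fold change 1.19, standard error 0.98, adjusted p = 0.5). Without CTL 2 it was 3.72 and passed (adjusted p = 0.025). For these 3 keratins RED and CTL samples overlapped. Krt8 averaged 353 ± 170.4 CPM in RED and 279 ± 94.5 CPM in CTL (log2 fold change 0.34, standard error 0.39, adjusted p = 0.65). Krt18 averaged 316 ± 148 CPM in RED and 252 ± 82.9 CPM in CTL (log2 fold change 0.33, standard error 0.35, adjusted p = 0.62).

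GREEN versus CTL set the switched cells of injured liver against healthy hepatocytes. The 3 comparisons share samples, so its values stand beside the others and are not separate support. Here 5 of 6 keratins passed and were higher, where 48.1% of 16387 genes passed and 29.5% were higher. The median log2 fold change of the 6 was 5.74, against 0.11 over all genes. Over all genes 4839 were higher and 3051 lower, and with libraries scaled by their totals 10077 were higher and 467 lower, with 6 keratins called. Krt19 had 13556 counts in GREEN and 1 in CTL, a ratio of 8476 with a counting interval of 1521 to 334818 (adjusted p = 4e-06). Krt23 averaged 39.5 ± 34.6 CPM in GREEN and 0.250 ± 0.447 CPM in CTL (log2 fold change 6.89, standard error 1.06, adjusted p = 2e-04). Krt7 averaged 24.3 ± 18.0 CPM in GREEN and 0.423 ± 0.234 CPM in CTL (log2 fold change 5.85, standard error 0.82, adjusted p = 0.00011). Krt80 averaged 1.73 ± 1.31 CPM in GREEN and 0.0339 ± 0.0469 CPM in CTL (log2 fold change 5.63, standard error 0.84, adjusted p = 0.00017). The duct keratins stood above every CTL sample in all 5 GREEN samples. For Krt80 the gap was small, with GREEN 1 at 0.186 CPM from 9 counts and CTL 4 at 0.114 CPM from 2. The share of all genes that separated these groups was not taken. Each duct keratin passed without GREEN 3, GREEN 4 and GREEN 5 as well, where 1705 of 17280 genes were higher.

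Krt8 averaged 573 ± 266 CPM in GREEN and 279 ± 94.5 CPM in CTL, and passed narrowly (log2 fold change 1.01, standard error 0.40, adjusted p = 0.049). Krt18 averaged 425 ± 166 CPM in GREEN and 252 ± 82.9 CPM in CTL and did not pass (log2 fold change 0.74, standard error 0.35, adjusted p = 0.099). Of 29 other fits, 3 called it: without GREEN 1 (0.92, adjusted p = 0.041), with libraries scaled by their totals (1.54, adjusted p = 0.0034) and with a block by title number (0.76, adjusted p = 0.042). Of 29 other fits, 10 kept the call of Krt8, among them DESeq2, and limma-voom did not (0.91, adjusted p = 0.065). Of the 15 samples left out in turn, the call held without GREEN 1, GREEN 2, RED 2 or CTL 5 and ended without each of the others. It ended without GREEN 3 (log2 fold change 0.83, adjusted p = 0.14), without GREEN 4 (0.94, adjusted p = 0.095) and without GREEN 5 (0.93, adjusted p = 0.098), and without all 3 the value was -0.080. Within the experiments Krt8 had 1.34 in experiment 1 (adjusted p = 0.059) and 0.63 in experiment 2 (adjusted p = 0.48).

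Levels of different keratins were compared per kilobase of transcript. Over GREEN samples Krt18 had 296 ± 116 and Krt8 293 ± 136 CPM per kilobase, followed by Krt19 with 34.9 ± 26.0, Krt23 with 25.2 ± 22.1, Krt7 with 5.93 ± 4.40 and Krt80 with 0.563 ± 0.427. The spreads of Krt8 and Krt18 overlapped, as did those of Krt19 and Krt23. Over RED samples Krt18 had 220.1 ± 103 and Krt8 180.3 ± 87.0 CPM per kilobase, and the duct keratins ran from 0.409 ± 0.282 for Krt23 over 0.310 ± 0.157 for Krt19 and 0.203 ± 0.171 for Krt7 to 0.0718 ± 0.0616 for Krt80, with overlapping spreads. Over CTL samples Krt23 had 0.160 ± 0.286 CPM per kilobase and Krt7 0.103 ± 0.0572. Of the 46 counts of Krt23 in CTL, 40 came from CTL 2, and Krt7 was higher per length than Krt23 in CTL 1, CTL 4 and CTL 5. Krt19 and Krt80, with 1 and 4 counts over all CTL libraries, could not be ranked against each other at this depth. The 4 duct keratins together made up 4.04% to 15.2% of the RNA of the 6 keratins per length in GREEN, 0.0879% to 0.665% in RED and 0.0310% to 0.373% in CTL. GREEN did not overlap the other groups.

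The balance of type I to type II keratin RNA was nearly the same in the 3 groups. The summed level of Krt18, Krt19 and Krt23 over that of Krt7, Krt8 and Krt80, per length, was 1.22 ± 0.123 in GREEN, 1.24 ± 0.120 in RED and 1.23 ± 0.0345 in CTL (SD, n = 5 each). GREEN samples ranged from 1.13 to 1.43, RED from 1.12 to 1.37 and CTL from 1.19 to 1.27, so the groups overlapped. Within the pair, Krt18 RNA per length was 136%, 105%, 101%, 94.2% and 96.6% of Krt8 in GREEN 1 to 5. It was 134%, 137%, 112%, 121% and 112% in RED 1 to 5. In CTL 1 to 5 it was 128%, 126%, 122%, 119% and 123%. GREEN 2 to 5 lay below every RED and CTL sample, and GREEN 1 lay among the highest. The difference in mean log2 ratio was -0.22 for GREEN versus RED (exact permutation test within experiments, p = 0.117, adjusted p = 0.135) and -0.22 for GREEN versus CTL (exact permutation p = 0.0667, adjusted p = 0.091), adjusted over 15 ratio tests. Without GREEN 1 it was -0.31 and -0.32, with adjusted p = 0.025 in both exact permutation tests.

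The same ratio does not depend on how libraries are scaled, and it was taken for each duct keratin. Krt19 RNA was 4.76%, 4.90%, 11.9%, 16.5% and 12.8% of Krt8 RNA per length in GREEN 1 to 5, and 0.129%, 0.233%, 0.281%, 0.0678% and 0.304% in RED 1 to 5. Krt23 was 3.97%, 4.37%, 4.72%, 15% and 9.65% of Krt8 in GREEN 1 to 5, and 0.234%, 0.881%, 0.295%, 0.0729% and 0.111% in RED 1 to 5. Both ratios separated the groups completely. In GREEN versus RED the ratio to Krt8 was higher by 5.66 for Krt19, 4.91 for Krt23, 4.24 for Krt7 and 1.99 for Krt80 on the log2 scale, each with p = 0.0167 in the exact two-sided permutation test, the smallest p that its 120 arrangements allow, and adjusted p = 0.025. For Krt80 the call ended without GREEN 4 or GREEN 5 (adjusted p = 0.075) and without RED 2, RED 3 or RED 4 (adjusted p = 0.05), and for Krt7 it ended without GREEN 2 or GREEN 3 (adjusted p = 0.05). Fewer arrangements were possible there. In RED versus CTL the ratio was higher by 4.17 for Krt19 and 2.07 for Krt80, again with an exact permutation p = 0.0167 and adjusted p = 0.025. The ratio of Krt80 in RED versus CTL rests on 0 to 2 counts per CTL library and was 1.09 with a pseudocount of 2 in place of 0.5 (exact permutation, adjusted p = 0.05). Without RED 1 or RED 5 its adjusted p was 0.091, and without CTL 1 it was 0.075. The ratio of Krt7 in RED versus CTL was higher by 0.33 (exact permutation, adjusted p = 0.768) and that of Krt23 by 2.39 (exact permutation, adjusted p = 0.125). Without CTL 2, the ratio of Krt23 was higher by 3.39 (exact permutation, adjusted p = 0.0454).

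**Figure D3:**
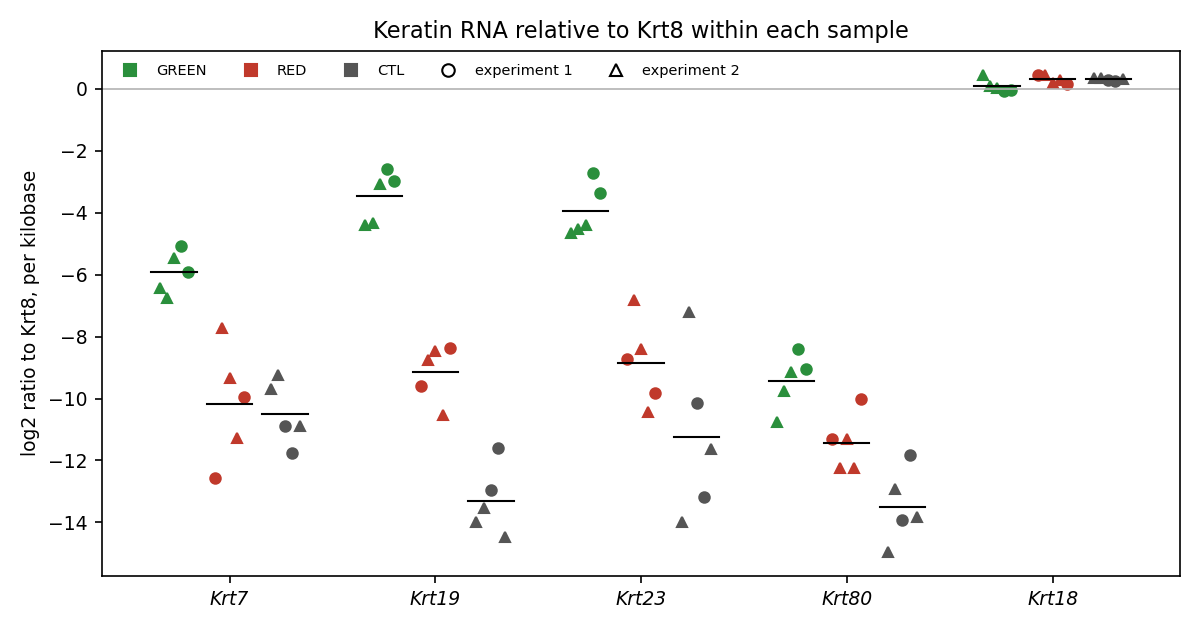
Log2 ratio of each keratin to Krt8 per kilobase of transcript, 1 point per sample, with group means as black lines, circles for experiment 1 and triangles for experiment 2. Krt19 stands at -4.39 to -2.60 in GREEN samples and at -8.36 or lower in RED and CTL samples, while Krt18 stays near 0 in all.

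The duct keratins ranked the GREEN samples alike. GREEN 1 was the lowest and GREEN 2 the second lowest GREEN sample, and GREEN 4 the highest, for Krt7, Krt19, Krt23 and Krt80 alike. The summed bile duct markers stood in the same order as Krt19, with 10626 CPM in GREEN 4, 5814 in GREEN 5, 4488 in GREEN 3, 1236 in GREEN 2 and 903 in GREEN 1. Of the 24 bile duct markers, 20 were higher in GREEN than in RED and 0 were lower, with Cldn4 (log2 fold change 7.92) among the higher. Over all genes 9.68% were higher and 3.22% lower. Spp1, the osteopontin gene whose promoter defines GREEN, is among the 24. The summed hepatocyte markers were lowest in GREEN 4, where the duct keratins were highest, at 50462 CPM. They were 111542 CPM in GREEN 1, the GREEN sample with the least duct keratin RNA, and highest of the group in GREEN 2, at 123239 CPM. RED samples held 138135 to 198673 CPM and CTL samples 181028 to 245583 CPM. Of 24 hepatocyte markers, 2 were lower in GREEN than in RED (F9, log2 fold change -1.09, and Apoc3, -0.95). In GREEN versus CTL 19 of them were lower, where 18.6% of all genes were lower. With libraries scaled by their totals 9 were lower, where 467 of 16387 genes were lower. With a sample left out, 0 to 7 of the markers were lower than in RED and 11 to 21 lower than in CTL. The calls of F9 and Apoc3 against RED ended in 13 and 15 of 32 other fits. Mesothelial cells of the liver surface are also known to carry Krt7, Krt8, Krt18 and Krt19. The summed level of 8 mesothelial markers was 15.1 to 67.6 CPM in GREEN, 4.44 to 6.90 CPM in RED and 0.676 to 2.99 CPM in CTL, where Bnc1, Upk1b and Upk3b were at 0. Of these 8 markers 5 rose in GREEN versus RED, Gpm6a (4.33) and Msln (2.84) among them. Of 10 stellate markers 3 rose, Col1a1 (2.59) and Col1a2 (2.15) among them, and 3 of 10 macrophage markers were called lower, Marco (-1.78) and Vsig4 (-1.75) among them, or 0 to 4 with a sample left out. The call of Marco ended in 21 of 32 other fits and that of Vsig4 in 20. Of the 10 endothelial, 6 neutrophil and 4 lymphocyte markers tested, 0 passed by edgeR and 0 had an unadjusted p under 0.05. The part of these cell types in the keratin values was not tested.

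**Figure D4:**
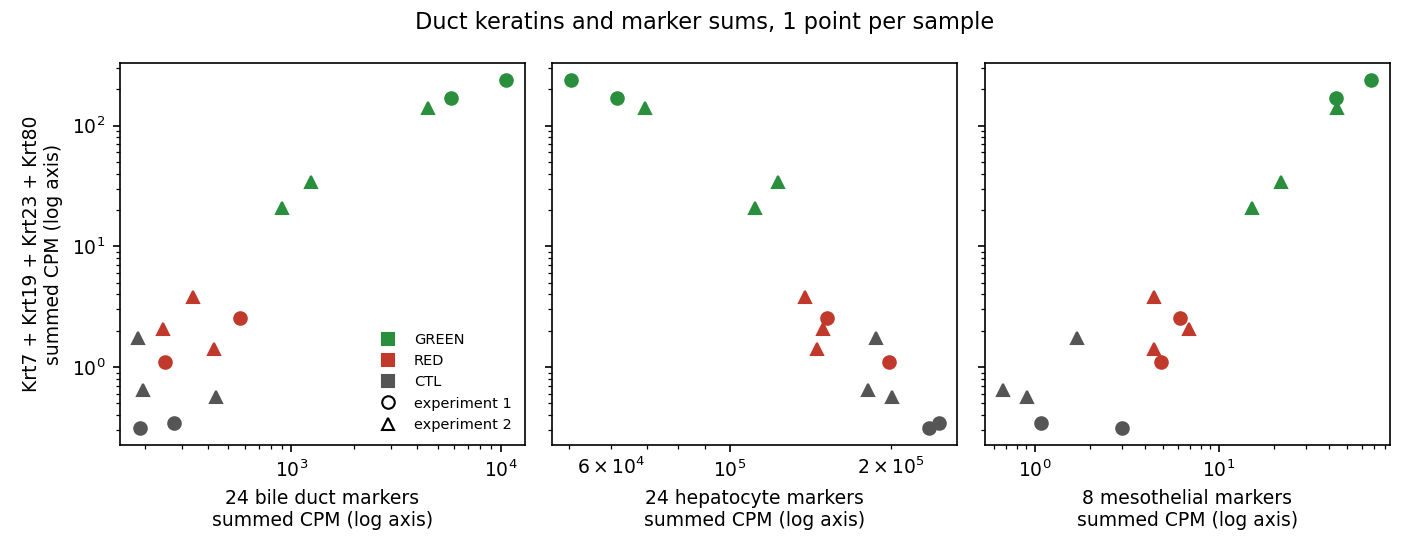
Summed CPM of Krt7, Krt19, Krt23 and Krt80 against the summed CPM of 3 marker lists, 1 point per sample on log axes. GREEN samples with more duct keratin RNA had more duct marker RNA (903 to 10626 CPM). The duct markers include Spp1, the osteopontin gene whose promoter defines GREEN. The 3 highest also had more mesothelial marker RNA than the other GREEN samples, and they had less hepatocyte marker RNA than the other GREEN samples.

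In RED versus CTL other cell markers moved beside Krt19. All 10 endothelial, all 10 stellate and all 10 macrophage markers rose in RED, where 14.2% of all genes were higher. So did 5 of 6 neutrophil markers tested and 6 of 8 mesothelial markers (Upk3b and Upk1b, both at 0 counts in CTL, among them). Of 24 bile duct markers 4 were called higher, a share near that of all genes, with Cd24a (4.58) and Tspan8 (3.92) leading. Over all genes 1.99% were called lower in RED versus CTL. Of 24 hepatocyte markers 1 was called lower, Serpina1c (-1.04), and of 4 lymphocyte markers tested 1, Cd4 (-2.20). These calls ended in 19 and 18 of 27 other fits, and that of Tspan8 in 13 of 26. The part of such cells in the Krt19 value of RED was not tested.

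The genes whose profile over the 15 samples was nearest to that of Krt19 were Cd24a, Mal, Itgb8, Fxyd3 and Kif12, with a root mean square difference of 0.56 to 0.64 in centred log2 CPM. Krt23 stood at rank 80 of 16386 genes in likeness to Krt19, Krt7 at rank 193 and Krt80 at rank 585. The gene nearest to Krt8 was Krt18, at 0.16, followed by Plscr1, Rybp, Ahi1 and Ppp1r13b at 0.27 to 0.30. The 4 duct keratins stood at ranks 13548 to 16341 in likeness to Krt8.

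Of the 47 other protein-coding keratins, 16 had 0 counts in all 15 libraries, 27 had counts too low for the test, and Krt10, Krt12, Krt17 and Krt20 were tested. Krt17, a keratin of basal and stressed epithelia, had 0.434, 2.27, 8.38, 19.9 and 7.52 CPM in GREEN 1 to 5, against at most 0.389 CPM in RED and 0.0523 CPM in CTL. GREEN did not overlap the other groups, and Krt17 rose in GREEN versus RED (log2 fold change 6.82, standard error 1.04, adjusted p = 0.0011). Krt20, known from intestinal and urothelial linings, and Krt12, known from the cornea, also passed in GREEN versus RED, at 3.32 (adjusted p = 0.033) and 4.24 (adjusted p = 0.028). These calls ended in 13 and 12 of 31 other fits. Krt17, Krt12 and Krt20 reached the test through their GREEN counts, so their number among the tested keratins is a description and not support. Both were highest in GREEN 5, at 1.61 and 2.88 CPM, while the other GREEN samples lay at 0.203 to 0.331 CPM for Krt20 and 0.245 to 0.434 CPM for Krt12. Without GREEN 5, and likewise without GREEN 3, 1 other keratin was called. Krt10, a keratin of the upper layers of skin, had 0.960 to 3.67 CPM in GREEN, 0.788 to 2.93 CPM in RED and 0.967 to 2.57 CPM in CTL, with the experiment 1 libraries high in every group. In RED versus CTL edgeR called 0 of the 4, 1 of which had an unadjusted p under 0.05, and DESeq2 and limma-voom also called 0. In GREEN versus CTL, Krt17, Krt12 and Krt20 were called.

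Keratin filaments are held at desmosomes and hemidesmosomes, and 21 genes of this anchoring were described beside the keratins. In GREEN versus RED 8 of the 21 rose and 0 fell, with a median log2 fold change of 0.29, against -0.02 over all genes. Of all genes 9.68% were higher there. Itgb4, the integrin chain of hemidesmosomes that binds filaments through plectin, rose by 5.27 (adjusted p = 0.00061), with 32.7 ± 20.9 CPM in GREEN and 0.849 ± 0.439 CPM in RED. Evpl, which encodes the junction linker envoplakin, rose by 4.03 (adjusted p = 0.0013), and Sfn, a 14-3-3 protein of epithelia that binds keratins, rose by 3.50 (adjusted p = 0.0024). The desmosomal genes Dsp (desmoplakin, 1.03) and Dsg2 (a desmosomal cadherin, 1.25) also rose, with 198 ± 44.6 and 321 ± 154 CPM in GREEN, against 102 ± 31.2 and 131 ± 21.9 CPM in RED. Plec, the plectin gene, had 249.8 ± 156 CPM in GREEN and 244 ± 160 CPM in RED (log2 fold change 0.07, adjusted p = 0.82). In RED versus CTL 3 of the 21 were called higher and 0 lower, a share near the 14.2% of all genes: Pkp1 (3.26) and Macf1 (0.61), which encode a desmosomal plaque protein and a cytoskeletal linker, and Col17a1 (2.74), the transmembrane collagen of hemidesmosomes. The calls of Macf1 and Col17a1 ended in 8 and 5 of 27 other fits. In GREEN versus CTL 12 of the 21 rose and 0 fell, where 29.5% of all genes were higher. Itgb4 (6.71), Evpl (4.37) and Sfn (4.15) led again. Dsp, Dsg2 and Plec were chosen after their values were seen.

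**Figure D5:**
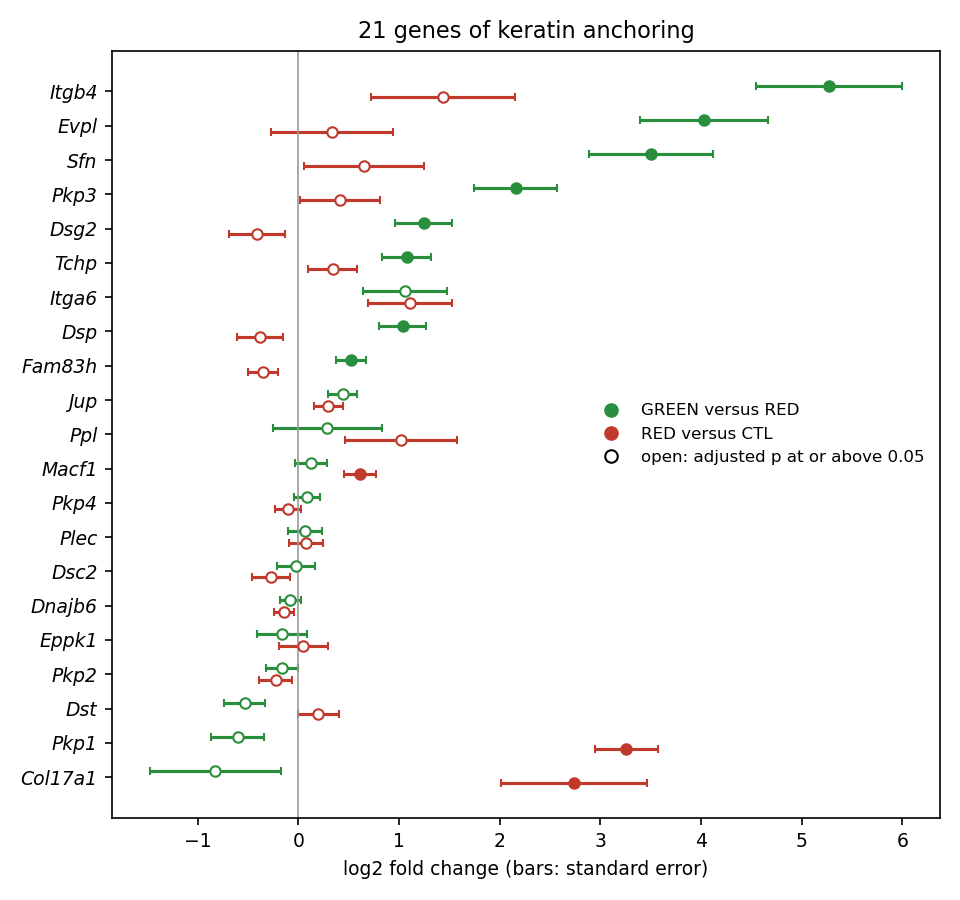
Fitted log2 fold change of 21 genes of keratin anchoring in GREEN versus RED and in RED versus CTL, with bars of 1 standard error and filled points for adjusted p under 0.05. In GREEN versus RED 8 genes are filled, Itgb4 highest at 5.27, and in RED versus CTL 3, Pkp1 highest at 3.26.

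Hepatocytes under chronic stress are known to gather Krt8 and Krt18 in inclusions with Sqstm1, the p62 protein, and 14 genes of these inclusions were described, of which 13 were tested. In GREEN versus RED 2 of the 13 rose and 0 fell, where 9.68% of all genes were higher and 3.22% lower. The 2 were the small heat shock proteins Cryab (log2 fold change 3.23, adjusted p = 0.0033) and Hspb1 (1.51, adjusted p = 0.042). The call of Hspb1 ended in 20 of 32 other fits. Sqstm1 itself had 294 ± 61.2 CPM in GREEN and 321 ± 50.6 CPM in RED (log2 fold change -0.13, adjusted p = 0.6) and was chosen after its values were seen. In RED versus CTL 2 of the 13 were called higher, a share near the 14.2% of all genes: Ubd (3.84), a ubiquitin-like modifier, and Tgm2 (0.73), a cross-linking transglutaminase. Psmb9 (-0.66), an immunoproteasome subunit, was called lower, where 1.99% of all genes were lower, and its call ended in 10 of 27 other fits. In GREEN versus CTL 5 of the 13 rose, with Cryab (4.84), Ubd (4.24) and the chaperone Hspa1a (3.09) leading. Psmb9 (-0.87) and Psmb8 (-0.52, but 0.20 with libraries scaled by their totals) fell. Over all genes 29.5% were higher and 18.6% lower there, so both shares lay near those of all genes.

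Of 16 other intermediate filament genes, 9 were tested. In GREEN versus RED 1 rose, the neurofilament gene Nefh (log2 fold change 2.17, adjusted p = 0.043), whose call ended in 23 of 31 other fits. Vim, the vimentin gene of mesenchymal cells, had 53.1 ± 30.5 CPM in GREEN and 27.9 ± 24.7 CPM in RED (log2 fold change 0.90, adjusted p = 0.21). In RED versus CTL 4 rose, Vim (4.47), Nes (4.44), which encodes nestin, and Nefh, at 1 count in CTL, among them, beside the endothelial and stellate markers given above. In GREEN versus CTL 6 rose, Nefh, Vim (5.37) and Nes (4.34) among them. Of all genes 9.68% were higher in GREEN versus RED, 14.2% in RED versus CTL and 29.5% in GREEN versus CTL.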

How the data were processed

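RNA was sequenced from 15 mouse liver cell samples in 19 libraries of 2 experiments, each with an input of 150 ng per the labels' protocols (experiment 1 with the TruSeq Stranded mRNA kit, experiment 2 with the KAPA HyperPrep kit with RiboErase). The authors deposited estimated counts per gene without normalization. The submitters' processing notes name kallisto 0.43.1 and GRCm38. The release of the annotation, the step from transcripts to genes and the method of RNA extraction are not stated there or in the labels.

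Ensembl identifiers were matched to symbols with GENCODE M21, on the same build (34924 of 35274 found, 99.0%). After rounding to whole numbers, 1 library per sample was used, that of experiment 2 where a sample had 2. Genes were filtered with filterByExpr (16387 left), libraries scaled by TMM, and 3 comparisons tested in a model of group and experiment with edgeR 4.0.16 (quasi-likelihood F test, R 4.3.3). P-values were adjusted by Benjamini and Hochberg's method over all genes tested, at a threshold of 0.05. Standard errors are the log2 fold change over the square root of F. CPM use TMM-scaled library sizes. Levels per kilobase used the length of the coding transcript of the consensus set. Ratios to Krt8 used counts plus 0.5 per kilobase and exact two-sided permutation within experiments. Limits for a count of 0 are 3 counts, and intervals and limits cover counting error only. DESeq2 1.42.0 and limma-voom (limma 3.58.1) were alternatives.

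The genes named are the 6 keratins, the 3 with the largest called change in each direction of the other keratin, filament, anchoring and inclusion lists, at most 2 of each marker list, and the 5 nearest in profile to Krt19 and to Krt8. The keratins and gene lists were chosen with earlier results of these data known. The labels name the samples biological replicates without tying them to animals, so p-values reflect the spread among samples, which may in part be technical. Reads shared by near-identical genes, Hspa1a and Hspa1b among them, are divided by estimation, and their counts are uncertain.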

Additional observations from a re-analysis of the deposited data

Results flagged for a closer look

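By Dixon's test at the 5% level, 9 of 42 groups of 5 samples held a sample that stood apart. For normally distributed values chance gives about 1 in 20. All 9 were groups of CPM values, some from few counts, where that rate need not hold, so no excess over chance is shown. For Krt19 in CTL the sample was CTL 4, at 0.0570 CPM from 1 count, with the other 4 at 0. For Krt23 it was RED 2, at 1.40 CPM, with RED 3 next at 0.575, and CTL 2, at 1.05 CPM, with CTL 3 next at 0.118. For Krt80 it was RED 5, at 0.545 CPM, with RED 4 next at 0.191, and CTL 4, at 0.114 CPM from 2 counts. For Krt18 it was RED 4, at 566 CPM, with RED 5 next at 306. For Krt17 it was RED 5, at 0.389 CPM, with RED 3 next at 0.0239. For Krt12 and Krt20 it was GREEN 5, at 2.88 and 1.61 CPM, with GREEN 1 next at 0.434 and 0.331. CTL 4 and RED 5 are libraries of experiment 1, and RED 2, RED 4 and CTL 2 of experiment 2.

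RED 2, RED 3 and RED 4 each had a second library, in experiment 1, that entered no comparison with 1 library per sample. In these 3 libraries Krt7 reached 0.632 CPM, Krt19 0.684 CPM and Krt23 1.12 CPM, and all 3 stood above every CTL library of that experiment, the highest of which had 0.191, 0.0507 and 0.287 CPM. Krt8 and Krt18 were above the CTL libraries in RED 4 alone, at 728 and 645 CPM, against at most 377 and 359 CPM in CTL. For Krt80 0 of the 3 libraries stood above CTL, with 0 to 0.190 CPM, against at most 0.191 CPM from 4 counts in CTL. They are repeat libraries of samples already used, not further samples.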

How the results depend on the processing

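Krt7, Krt19 and Krt23 kept their calls in GREEN versus RED under both other scalings, both other tools and every left-out sample. For GREEN versus RED, 4 keratins were called, against 0 in experiment 2 alone and 1 without GREEN 3, GREEN 4 and GREEN 5. For GREEN versus CTL, 5 were called, against 3 in experiment 2 alone and 3 with only those groups fitted. In the latter fit Krt80 was removed by the filter on low counts, and Krt8 was tested but not called. For RED versus CTL, 1 was called, against 2 by library totals and by DESeq2 and 1 to 2 with a sample left out. By limma-voom, in experiment 2 alone and with only those groups fitted, 0 were called. Krt19 and Krt80 were filtered out of the last fit. At an unadjusted p under 0.05 these fits had 2, 1 and 0. For the other keratins of GREEN versus RED, 3 were called, against 5 with no filter and in experiment 1 alone, 1 with the experiment 1 library of repeated samples, 1 to 4 with a sample left out, 1 without GREEN 3 and GREEN 4, and 0 in experiment 2 alone and without GREEN 3, GREEN 4 and GREEN 5. For those of GREEN versus CTL, 3 were called, against 5 with no filter and 1 with the experiment 1 library. The causes were not tested. The fits without GREEN 3, GREEN 4 or GREEN 5 together were chosen after seeing the data.

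With a sample left out, the log2 ratio to Krt8 ranged in GREEN versus RED over 3.64 to 4.85 for Krt7, 1.74 to 2.35 for Krt80 and -0.31 to -0.18 for Krt18. It ranged in GREEN versus CTL over 6.60 to 8.30 for Krt23 and -0.32 to -0.18 for Krt18, and in RED versus CTL over 1.71 to 2.48 for Krt80 and 1.70 to 3.39 for Krt23. The ratio of Krt80 in RED versus CTL was 1.09 with a pseudocount of 2. Reversed values were -0.080 for Krt8 in GREEN versus CTL without GREEN 3, GREEN 4 and GREEN 5, and 0.20 for Psmb8 in GREEN versus CTL by library totals.

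Scaling by library totals moved the median over all genes (log2) to 0.42 in GREEN versus RED, 0.33 in RED versus CTL and 0.83 in GREEN versus CTL. In GREEN versus CTL it called 9 hepatocyte markers lower, against 19, and of the genes of anchoring 19 higher, against 12. Of all 16387 genes it called 10077 higher, against 4839, and 467 lower, against 3051.

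Replicate numbers did not pair the samples. Deviations from group means of RED and GREEN samples with 1 library code correlated at 0.58, 0.40, 0.78 and -0.22, and by title number at -0.22 to 0.58. Within experiment 2 all 3 RED samples and all 3 GREEN samples correlated best with the sample of their own library code, which is a hint from the data and not the design, while by title number 1 of 5 did in each group. With the replicate block by title number 2 keratins were called in RED versus CTL and 6 in GREEN versus CTL. With the block by library code and without CTL, 1 other keratin was called in GREEN versus RED. Within experiment 2 the block by library code called 2 keratins and 1 other keratin, against 0 and 0 without the block, where 3 of each had an unadjusted p under 0.05. Krt80 in RED and CTL (34 and 4 counts) and Krt19 in CTL (1 count) rest on few counts, which limits their values.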
